A study of Mus musculus with 6 samples.

Results

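Killer lectin receptors and granzymes are the recognition and killing apparatus of cytotoxic lymphocytes. The genes were taken by symbol: the Klra, Klrb, Klrc, Klrd, Klre, Klrg, Klri and Klrk genes, the granzymes Gzma to Gzmn, and Prf1, Nkg7 and Ncr1. This gave 39 of the 32285 genes in the count matrices, of which 26 were Klr genes and 10 were granzymes. Of the 39, 35 had at least 1 unique molecular identifier (UMI, a tag that counts 1 captured RNA molecule) and 33 had at least 50. Gzmc and Gzme had 15 and 2 UMIs, and Gzmd, Gzmf, Gzmg and Gzmn had 0. Together the 39 genes held 21868 UMIs.

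The RNA came from nuclei of mouse subcutaneous white adipose tissue (scWAT), sorted on the DNA dye DAPI and sequenced in 10x Genomics 3′ libraries. CKO libraries (3, from 3 mice) are from GPSM1ΔTreg mice, a name that places the deletion of Gpsm1 in regulatory T cells. FLOX libraries (3, from 3 mice) are from GPSM1f/f mice, in which Gpsm1 carries loxP sites in every cell and is not deleted. Mice of both groups were put on a high-fat diet (HFD) when 7 weeks old. The labels give 12 weeks of diet, the protocol 5 to 12. Neither the Cre line nor the sex is stated in the labels. Matrices held 38857282 to 41951373 UMIs in CKO libraries, against 45007561 to 55342903 in FLOX libraries, and all 3 CKO libraries were shallower than all 3 FLOX libraries. Any pair of libraries shared 24 to 44 cell barcodes. Gpsm1 itself did not check the labels: in whole tissue it stood at 38.3, 38.4 and 33.8 CPM (counts per 1000000 UMIs of the library or class) in CKO libraries 1 to 3, against 27.0, 31.1 and 23.8 CPM in FLOX libraries 1 to 3, and the Treg-like nuclei held only 10 Gpsm1 UMIs in all.

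Killer lectin receptors are C-type lectin-like proteins on natural killer (NK) cells and some T cells. In mice the Ly49 receptors (Klra genes) and the CD94/NKG2 pairs (Klrd1 with Klrc genes) read MHC class I molecules on the target cell, most of them as brakes on killing, while NKG2D (Klrk1) and NKp46 (Ncr1) trigger it. The attack itself uses granules that hold perforin (Prf1), which opens the target's membrane, and granzymes, serine proteases that enter and start cell death. In adipose tissue, NK cells and innate-like T cells are resident populations that have been studied in diet-induced obesity.

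Of the 26 Klr genes, 24 lie within 2.64 Mb of chromosome 6, at chr6:128609227-131247362 (mm10, GENCODE vM21), the NK gene complex, with Klrg1 and Klrg2 elsewhere on that chromosome. A further 7 members lie on chromosome 14, where Gzmb and its relatives Gzmc to Gzmn span 0.145 Mb. The remaining 6 lie on chromosome 13 (Gzma, Gzmk), chromosome 10 (Gzmm, Prf1) and chromosome 7 (Ncr1, Nkg7). Promoters of 36 members were found in RefSeq (GRCm38.p6), each reaching from 250 bases before to 50 bases after the start of transcription. All were searched on both strands for the Runx core TGTGGT, the T-box core TCACACC and the PU.1-type core GAGGAAGT. These are motifs of factor families with known roles in NK cells, T cells and myeloid cells. The Runx core was in the promoters of 19 of the 36 members and in 16.8% of all 32851 promoters in the table. It was in 8 of 10 granzymes and in 10 of 15 other members outside the Ly49 family, but in 1 of 11 Klra genes. The T-box core was in 4 members against 3.98% of all promoters, and the PU.1-type core was in 0 members against 3.20% of all promoters. A match describes letters only.

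Promoters of 6 members are shown because they span the patterns found below. Ncr1 and Gzma were found mostly in NK-like nuclei. Prf1 and Klrk1 were shared between NK-like and T-like nuclei, and Klrk1 is the gene on which the T-cell comparison turns. Klra4 and Klra2 are related Ly49 genes found in NK-like and in monocyte-like nuclei. Capitals mark the Runx core on either strand, and the Klra promoters held none of the 3 motifs. The windows are chr7:4337465-4337764 (plus strand) for Ncr1, chr13:113100932-113101231 (minus) for Gzma, chr10:61297586-61297885 (plus) for Prf1, chr6:129623815-129624114 (minus) for Klrk1, chr6:130067222-130067521 (minus) for Klra4 and chr6:131247313-131247612 (minus) for Klra2, all in GRCm38.p6 and read 5′ to 3′ on the gene's strand.
Ncr1: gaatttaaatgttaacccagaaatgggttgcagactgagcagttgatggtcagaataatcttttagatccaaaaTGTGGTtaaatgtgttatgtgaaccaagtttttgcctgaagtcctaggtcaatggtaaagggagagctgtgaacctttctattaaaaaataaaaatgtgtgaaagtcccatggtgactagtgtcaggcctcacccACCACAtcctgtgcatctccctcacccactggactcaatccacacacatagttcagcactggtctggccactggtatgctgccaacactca
Gzma: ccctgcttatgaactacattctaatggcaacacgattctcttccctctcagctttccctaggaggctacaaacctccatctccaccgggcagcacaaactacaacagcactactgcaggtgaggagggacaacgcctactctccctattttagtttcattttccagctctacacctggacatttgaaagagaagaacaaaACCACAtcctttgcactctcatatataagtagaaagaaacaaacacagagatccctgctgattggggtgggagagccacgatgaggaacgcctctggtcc
Prf1: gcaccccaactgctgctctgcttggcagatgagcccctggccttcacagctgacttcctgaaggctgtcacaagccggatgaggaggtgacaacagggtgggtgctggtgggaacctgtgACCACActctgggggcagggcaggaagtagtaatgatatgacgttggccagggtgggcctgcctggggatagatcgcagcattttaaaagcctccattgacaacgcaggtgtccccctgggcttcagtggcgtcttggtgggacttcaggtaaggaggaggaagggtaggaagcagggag
Klrk1: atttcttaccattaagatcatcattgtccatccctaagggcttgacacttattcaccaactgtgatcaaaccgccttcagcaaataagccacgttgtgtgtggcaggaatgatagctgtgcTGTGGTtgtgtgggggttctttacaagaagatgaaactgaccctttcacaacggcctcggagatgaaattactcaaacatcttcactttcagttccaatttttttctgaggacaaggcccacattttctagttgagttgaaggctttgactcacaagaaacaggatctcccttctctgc
Klra4: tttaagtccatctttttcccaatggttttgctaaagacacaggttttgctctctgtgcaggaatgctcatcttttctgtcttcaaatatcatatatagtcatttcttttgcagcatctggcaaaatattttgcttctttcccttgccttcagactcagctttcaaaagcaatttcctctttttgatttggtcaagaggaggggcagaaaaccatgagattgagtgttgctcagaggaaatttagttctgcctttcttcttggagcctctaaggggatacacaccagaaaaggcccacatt
Klra2: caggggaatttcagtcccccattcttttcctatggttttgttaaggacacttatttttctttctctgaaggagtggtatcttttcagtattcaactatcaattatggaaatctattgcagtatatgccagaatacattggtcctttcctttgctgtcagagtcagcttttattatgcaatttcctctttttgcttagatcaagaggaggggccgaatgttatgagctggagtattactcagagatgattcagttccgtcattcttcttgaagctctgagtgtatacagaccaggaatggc

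Nuclei were grouped by clustering without the 39 genes, so that these genes did not place the nuclei, and clusters were named from other markers. The NK-like class held 293 of 56451 kept nuclei. Itga2, which is in none of the marker lists, stood there at 838 CPM. Eomes was at 127 CPM and Cd3e at 14.6 CPM, where T-like nuclei had 31.8 CPM of Eomes and 278 CPM of Cd3e. Both are in the lists that named the clusters, so their levels do not check the name. The 12 T-cell markers summed to 1143 to 1908 CPM by library in NK-like nuclei, against 7300 to 10283 CPM in T-like nuclei. CKO libraries 1 to 3 gave 52, 52 and 32 NK-like nuclei, and FLOX libraries 1 to 3 gave 82, 43 and 32. The T-like class held 2922 nuclei: 1299, 388 and 769 in CKO libraries 1 to 3, against 196, 99 and 171 in FLOX libraries 1 to 3.

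In NK-like nuclei the 39 genes summed to 20353, 21434 and 19280 CPM in CKO libraries 1 to 3, against 18848, 21705 and 14377 CPM in FLOX libraries 1 to 3. The groups overlap, with FLOX library 3 the lowest. In T-like nuclei the sums were 1006, 680 and 804 CPM in CKO libraries, against 1393, 1016 and 544 CPM in FLOX libraries, which overlap as well. Adipocyte-like nuclei, taken as a measure of free RNA, held 6.39 to 15.1 CPM in CKO libraries, against 6.11 to 18.3 CPM in FLOX libraries.

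**Figure D1:**
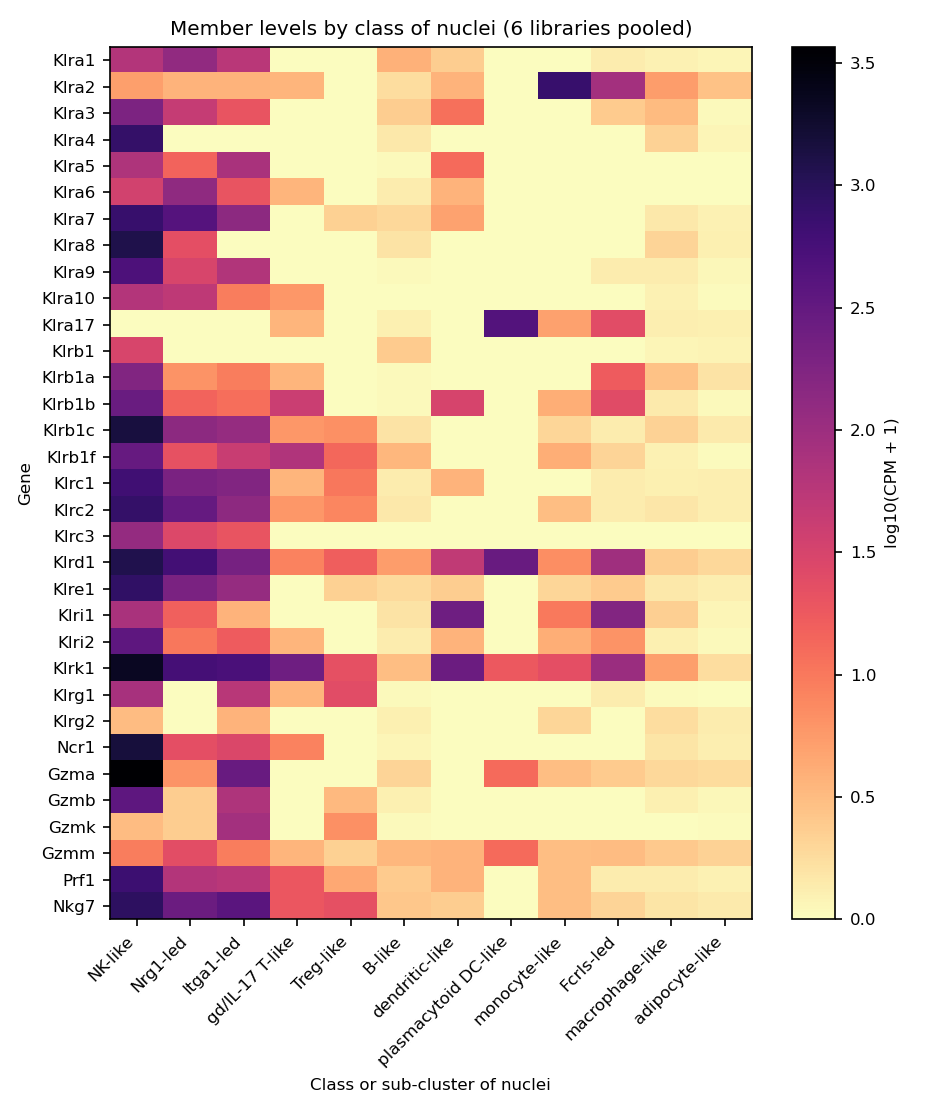
Level of each member with at least 50 UMIs (rows) in classes and sub-clusters of nuclei (columns), as log10 of the pooled CPM plus 1 over 6 libraries. Colours are to be read along a row, since levels of different genes also follow their length; most rows are darkest at the NK-like column, with Klra2 darkest in monocyte-like nuclei, Klra17 in plasmacytoid dendritic-like nuclei and Klri1 in dendritic-like nuclei.

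Of the 33 members with at least 50 UMIs, 28 had their highest pooled level in NK-like nuclei among the 11 classes compared. In 23 of these 28, every library of NK-like nuclei stood above every library of the class in second place. The exceptions were Klra1, Klra5, Klra6, Klrg1 and Klrg2, where the NK-like libraries overlapped those of the next class. The other members peaked elsewhere: Klra2 in monocyte-like, Klra17 and Gzmm in plasmacytoid dendritic-like, Klri1 in dendritic-like and Gzmk in T-like nuclei. The place of Gzmm rests on 2 of its 412 UMIs and that of Klrg2, counted with the NK-like class, on 1 of 115. Most Gzmm UMIs lay in nuclei outside the immune classes described here, 57.2% in CKO and 79.4% in FLOX libraries. So did 77.3% of Klrg2 UMIs in FLOX libraries. These levels are a description, with no test.

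Among triggering receptors, Ncr1, which encodes NKp46, was found mostly in NK-like nuclei, which held 84.5% of its UMIs, at 1694, 1663 and 1253 CPM in CKO libraries, against 1419, 1802 and 1111 CPM in FLOX libraries. In T-like nuclei it was at 5.71 CPM pooled. Klrb1c encodes NK1.1, the antigen by which NK cells of C57BL/6 mice are usually identified. It had 1853, 1605 and 1454 CPM in NK-like nuclei of CKO libraries, against 1209, 1576 and 1111 CPM in FLOX libraries, and 72.2% of its UMIs lay in that class. Only 1 FLOX library reached the CKO range.

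Klrk1, the NKG2D receptor for the stress ligands of the Raet1 and H60 families, was spread more widely. Of its 2920 UMIs, NK-like nuclei held 28.2% in CKO libraries, against 47.3% in FLOX libraries, and T-like nuclei 36.1%, against 16.1%, so that the order of these classes differs between genotypes. Over all libraries, a further 9.90% lay in an unnamed cluster led by Fcrls, Lyz1 and Retnla and 7.09% in dendritic-like nuclei. Its level in NK-like nuclei was 2669, 2335 and 1981 CPM in CKO libraries, against 2062, 2096 and 1759 CPM in FLOX libraries. The dendritic-like level was 287, 252 and 336 CPM in CKO libraries, against 331, 250 and 129 CPM in FLOX libraries, and these groups overlap.

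The Ly49 genes differed among themselves. Klra8 and Klra4, the activating receptors Ly49H and Ly49D, had 82.3% and 84.5% of their UMIs in NK-like nuclei. Klra8 stood there at 1109, 1590 and 1424 CPM in CKO libraries, against 1181, 1230 and 771 CPM in FLOX libraries. Klra4 was at 707, 919 and 975 CPM in CKO libraries, against 846, 832 and 509 CPM in FLOX libraries, and both genes overlap between genotypes. The inhibitory Klra7 (Ly49G) had 29.0% of its UMIs in NK-like nuclei of CKO libraries, against 74.1% in FLOX libraries, and 54.1% in T-like nuclei, against 10.9%. Klra1 (Ly49A), also inhibitory, had 9.20% in NK-like nuclei of CKO libraries, against 24.1% in FLOX libraries, and 55.2% in T-like nuclei, against 19.0%. In both genes T-like nuclei held the larger share in the pooled CKO libraries and NK-like nuclei in the pooled FLOX libraries. Klra6 (Ly49F) had more UMIs in T-like than in NK-like nuclei in both genotypes, with 92 and 9 of 129 UMIs in CKO libraries, against 10 and 7 of 19 in FLOX libraries.

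A pair of Ly49 genes was found in myeloid nuclei. Klra2 (Ly49B) stood at 633, 831 and 661 CPM in monocyte-like nuclei of CKO libraries, against 848, 694 and 593 CPM in FLOX libraries, and 52.0% of its 1426 UMIs lay in those 526 nuclei, with 243 of the UMIs in the Fcrls-led cluster. In NK-like nuclei it had 2 UMIs. Klra17 (Ly49Q), known from plasmacytoid dendritic cells, had 33.0% of its 230 UMIs in the 68 plasmacytoid dendritic-like nuclei, 50 of which came from CKO library 1, and none in NK-like nuclei. The Fcrls-led cluster, 944 nuclei that match none of the marker lists, also held 51.7% of the UMIs of Klri1, at 173, 142 and 166 CPM in CKO libraries, against 201, 148 and 128 CPM in FLOX libraries. Klri1 and Klri2 each pair with Klre1 at the cell surface. Klri2 and Klre1 went with NK-like nuclei instead, with 67.1% and 55.1% of their UMIs there.

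Klrd1 encodes CD94, the shared partner chain of the NKG2 receptors, and its main class differed between the pooled genotypes. NK-like nuclei held 13.9% of its UMIs in CKO libraries, against 39.6% in FLOX libraries, and T-like nuclei 54.2%, against 16.7%. In NK-like nuclei it was at 1341, 1342 and 1130 CPM in CKO libraries, against 1181, 1247 and 879 CPM in FLOX libraries. Its partners Klrc1 (NKG2A, inhibitory) and Klrc2 (NKG2C, activating) were at 646, 657 and 511 CPM and at 695, 657 and 851 CPM in CKO libraries, against 629, 866 and 617 CPM and 902, 780 and 756 CPM in FLOX libraries. Neither level separates the genotypes. The shares of both genes moved as those of Klrd1 did. NK-like nuclei held 35.0% of Klrc1 and 30.3% of Klrc2 UMIs in pooled CKO libraries, against 67.2% and 71.9% in pooled FLOX libraries. T-like nuclei held 44.7% and 48.7%, against 14.6% and 13.2%.

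The granule genes divided in a similar way. Gzma had 3827, 4056 and 3853 CPM in NK-like nuclei of CKO libraries, against 3522, 4712 and 2268 CPM in FLOX libraries, so that FLOX libraries lay on both sides of the CKO libraries. NK-like nuclei held 77.6% of its UMIs, T-like nuclei 2.81%. A cluster with both T-cell and B-cell markers held 188 of 1323 Gzma UMIs in FLOX libraries, against 16 of 951 in CKO libraries. Gzmb, which starts caspase-dependent death, was at 353, 292 and 557 CPM in CKO libraries, against 349, 294 and 262 CPM in FLOX libraries. Prf1 was at 597, 569 and 743 CPM in CKO libraries, against 713, 1005 and 524 CPM in FLOX libraries. NK-like nuclei held 37.9% of Prf1 UMIs in pooled CKO libraries, against 73.2% in pooled FLOX libraries, and T-like nuclei 40.7%, against 6.42%. Nkg7, a granule membrane protein needed for exocytosis, had 24.3% of its UMIs in NK-like nuclei of pooled CKO libraries, against 55.1% in pooled FLOX libraries. In T-like nuclei it had 57.4%, against 23.7%. Gzmk, typical of memory-type T cells, had 46.5% of its 86 UMIs in T-like nuclei and 1 UMI in NK-like nuclei.

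**Figure D2:**
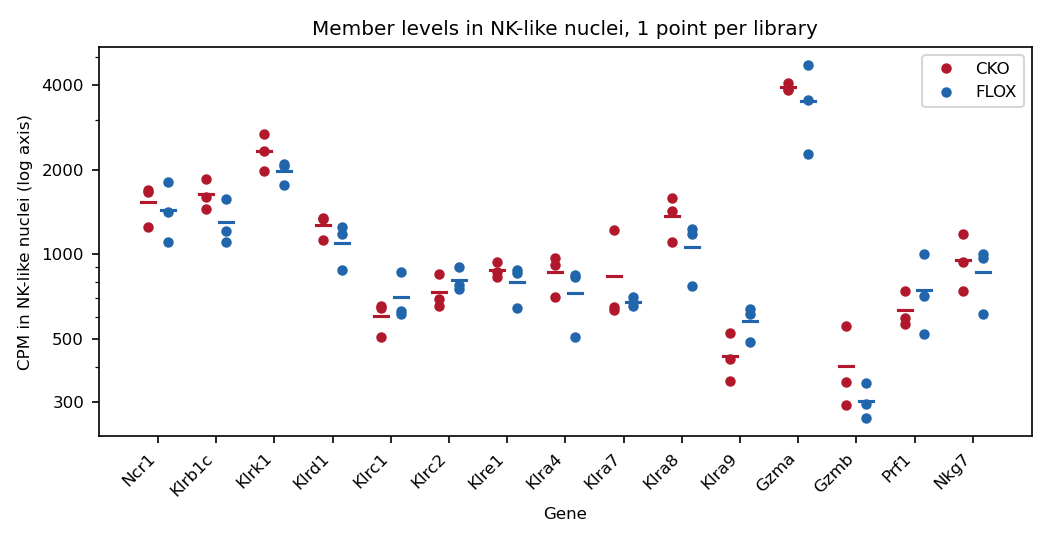
Level of 15 members in NK-like nuclei, in CPM on a log axis, with 1 point per library and a bar at the mean of 3 libraries (CKO red and left, FLOX blue and right). The points of both genotypes overlap for each gene shown; Gzma lies between 3827 and 4056 CPM in CKO libraries and between 2268 and 4712 CPM in FLOX libraries.

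Ly49 receptors are switched on by chance in single NK cells, so that each cell carries its own combination. At least 1 Klra UMI was found in 74.7% of the 293 NK-like nuclei and at least 2 different Klra genes in 53.9%, against 2.14% and 0.0731% of adipocyte-like nuclei, whose median depth was 6250 UMIs, where NK-like nuclei had 1421. By library, 67.3, 76.9 and 71.9% of NK-like nuclei were Klra-positive in CKO mice, against 73.2, 79.1 and 84.4% in FLOX mice. The groups overlap. Thinned to 1000 UMIs, which left 220 of the 293 nuclei, 70.9% were Klra-positive. The median NK-like nucleus held UMIs of 11 of the 39 genes.

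Per gene, the shares of NK-like nuclei with a UMI did not overlap between genotypes for 4 of the 28 members found in at least 10 of these nuclei, where 8.74% of the 6868 genes found as often were apart in the same way. Gzma was detected in 63.5, 59.6 and 59.4% of nuclei in CKO libraries (60.8 ± 2.29%, SD, n = 3), against 69.5, 72.1 and 68.8% in FLOX libraries (70.1 ± 1.75%, n = 3; exact permutation p = 0.1, two-sided, as small as 3 libraries a group allow). Exact 95% Clopper-Pearson intervals, which cover counting error only, ran from 45.1 to 73.0% in CKO library 2 and from 56.3 to 84.7% in FLOX library 2, so that the libraries' intervals overlap. Klra9 was also detected less often in CKO libraries (32.9% against 41.4% on average), and Klrb1c (89.2% against 82.5%) and Klrb1f (39.3% against 27.9%) more often, each with the same exact permutation p of 0.1. After thinning, 4 members were again apart, but only Gzma was among the first 4. In the thinned nuclei that gave the Klra share above, Gzma was detected in 56.4, 48.5 and 53.3% in CKO libraries. In FLOX libraries it was detected there in 56.1, 56.0 and 63.0%, so that the genotypes overlap. Whether Gzma was apart after thinning thus differed between these counts.

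Counts summed per library were tested with edgeR's quasi-likelihood test and Benjamini-Hochberg (BH) adjustment over all genes of a comparison, at a threshold of 0.05. In NK-like nuclei, 20 members passed the filter on low counts and 0 were called, where 2 of 1647 genes were called (0.121%). At an unadjusted p under 0.05 there were also 0 members, and DESeq2 called 0. The member nearest to the threshold, Klrb1f, a receptor for Clec2 ligands, had a log2 fold change of 0.59 ± 0.29 (SE, CKO over FLOX) and an edgeR adjusted p of 0.81. Klrk1 had 0.23 ± 0.18, Gzma 0.16 ± 0.21, Ncr1 0.09 ± 0.20 and Prf1 -0.23 ± 0.23. Of the 23 marker lists, 1 had summed levels in these nuclei that do not overlap between genotypes: the 5 Schwann-cell markers, 2 of them at 0, at 12.2, 14.6 and 0 CPM in CKO libraries, against 21.0, 34.6 and 92.6 CPM in FLOX libraries. The 12 T-cell markers, 1 of them at 0, summed to 1284 to 1901 CPM in CKO libraries, against 1143 to 1908 CPM in FLOX libraries, and the 10 B-cell markers, none at 0, to 366 to 1934 CPM, against 243 to 2592 CPM. The 12 macrophage markers, none at 0, were at 146, 190 and 30.9 CPM in CKO libraries, against 468, 468 and 170 CPM in FLOX libraries, and the 4 Treg markers, 1 at 0, at 195, 423 and 480 CPM, against 189, 173 and 201 CPM. Their part in the members' values was not tested.

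The portion of nuclei that were NK-like was 0.531, 0.551 and 0.340% in CKO libraries (0.474 ± 0.116%, SD, n = 3), against 0.881, 0.471 and 0.341% in FLOX libraries (0.564 ± 0.282%, n = 3). The log2 ratio was -0.25 ± 0.49 (edgeR on nuclei per class, adjusted p = 0.75 over 12 classes). Its sign depended on the scaling: with TMM factors over classes it was 0.089 (adjusted p = 0.84). Without FLOX library 1 it was 0.22. T-like nuclei, in the same test, made up 13.3, 4.11 and 8.18% of nuclei in CKO libraries, against 2.11, 1.08 and 1.82% in FLOX libraries, a log2 ratio of 2.35 ± 0.55 (edgeR adjusted p = 0.0131). The groups do not overlap, but the call was lost with TMM factors (adjusted p = 0.056) and without CKO library 1 (0.067). B-like nuclei made up 38.8, 12.3 and 19.1% in CKO libraries, against 2.02, 1.03 and 5.04% in FLOX libraries. Their log2 ratio was 3.11 ± 0.72 (edgeR adjusted p = 0.0131), and this call was lost in the same settings (0.067 in each). It was lost as well with at least 1000 genes per nucleus (0.106). Nuclei of an unnamed cluster led by Pcdh15, Cxcl13 and Robo2 numbered 142, 25 and 79 in CKO libraries, against 0, 0 and 8 in FLOX libraries. Lymphatic endothelial-like nuclei made up 0.685, 0.424 and 0.596%, against 0.290, 0.0876 and 0.213% (edgeR adjusted p = 0.054). How much lymphoid tissue each sample held was not tested. Mural-like nuclei were also called, lower in CKO (-1.42 ± 0.40, edgeR adjusted p = 0.026). This call was lost with a replicate block (0.148) and at a clustering resolution of 2 (0.108). It was also lost without CKO library 1, 2 or 3 (0.067, 0.051 and 0.134) or FLOX library 1 or 2 (0.063 and 0.095).

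In whole tissue, the sum over all kept nuclei, the 39 genes stood at 164, 83.0 and 116 CPM in CKO libraries, against 97.6, 53.9 and 52.0 CPM in FLOX libraries. FLOX library 1 lay above CKO library 2 (exact two-sided permutation p = 0.2). Within pairs of the same number, CKO was higher in 3 of 3 (exact paired permutation p = 0.25, the smallest that 3 pairs allow). Member UMIs from NK-like nuclei gave 49.9, 44.1 and 34.8 of these CPM in CKO libraries, against 55.8, 25.7 and 22.7 in FLOX libraries (exact permutation p = 0.5). Those from T-like nuclei gave 72.3, 12.2 and 32.6 CPM in CKO libraries, against 9.02, 3.06 and 4.46 CPM in FLOX libraries (exact permutation p = 0.1, the smallest possible), and here every CKO library was above every FLOX library. Pooled over libraries, T-like nuclei held 32.2% of member UMIs in CKO and 8.10% in FLOX, and NK-like nuclei 35.4% and 51.5%. A cluster with both T-cell and B-cell markers gave 22.2 CPM in CKO library 3, which held 465 of its 607 nuclei, and at most 5.21 CPM elsewhere. The 5.21 CPM came from only 4 nuclei of FLOX library 2, which held 254 member UMIs.

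**Figure D3:**
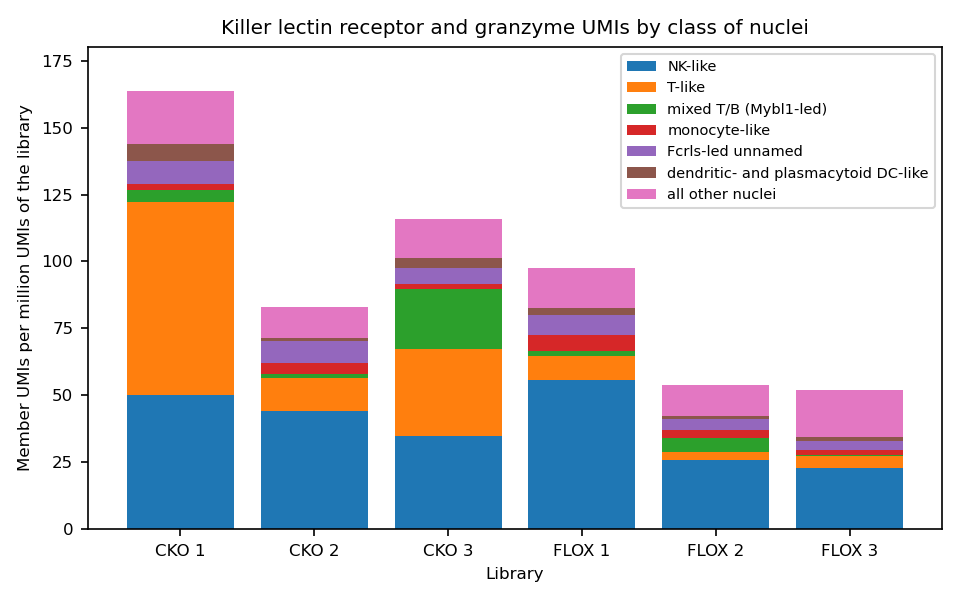
Summed level of the 39 genes in each library, in CPM of all its UMIs, stacked by the class of nuclei they came from (3 CKO libraries left, 3 FLOX libraries right). The NK-like part is of similar height in both genotypes (34.8 to 49.9 against 22.7 to 55.8), while the T-like part runs from 12.2 to 72.3 in CKO libraries and from 3.06 to 9.02 in FLOX libraries.

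Gene by gene in whole tissue, 33 members passed the filter and edgeR called 0, where 9 of 19321 genes were called (0.0466%). At an unadjusted p under 0.05 there were 9 of the 33 members, all higher in CKO, and 28.4% of all genes, in either direction, a share close to that of the members. By their deviations here, CKO libraries 1 and 2 went best with the FLOX library of the same number, while CKO library 3 did not. With a replicate block edgeR called 5 members, all higher in CKO: Klra6, Klra7, Klrd1, Klrk1 and Nkg7 (5.92% of all genes were called in that fit). DESeq2 called 8 members, where it called 17.3% of all genes. Without CKO library 2, edgeR called 6 members and 17.3% of all genes. The median log2 fold change was 0.59 over the 33 members and 0.01 over all genes tested. In whole tissue, more nuclei of a type and more RNA per nucleus cannot be told apart.

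Klrd1 stood at 29.6, 8.14 and 20.1 CPM in whole tissue of CKO libraries, against 7.63, 3.53 and 5.17 CPM in FLOX libraries (log2 fold change 1.74 ± 0.50, edgeR adjusted p = 0.089, and 0.033 with the replicate block). Klra7 was at 9.06, 3.94 and 5.03 CPM in CKO libraries, against 2.67, 1.01 and 1.68 CPM in FLOX libraries (1.66 ± 0.45, adjusted p = 0.078, and 0.031 with the block). For both genes the groups do not overlap. Klrk1 was at 23.7, 10.7 and 18.2 CPM in CKO libraries, against 11.4, 5.52 and 7.32 CPM in FLOX libraries (1.03 ± 0.37, adjusted p = 0.13, and 0.033 with the block). Klra6 had the largest fitted difference, 3.08 ± 1.08, at 2.24, 0.270 and 1.26 CPM in CKO libraries, against 0.289, 0 and 0.122 CPM in FLOX libraries. In contrast Gzma, at 10.7, 9.56 and 7.68 CPM in CKO libraries, against 12.6, 10.7 and 4.73 CPM in FLOX libraries, had a log2 fold change of -0.09 ± 0.35, which had the opposite sign with the replicate block (0.0029). Ncr1 had 0.16 ± 0.37. Whether this contrast follows the T-like share was not tested.

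**Figure D4:**
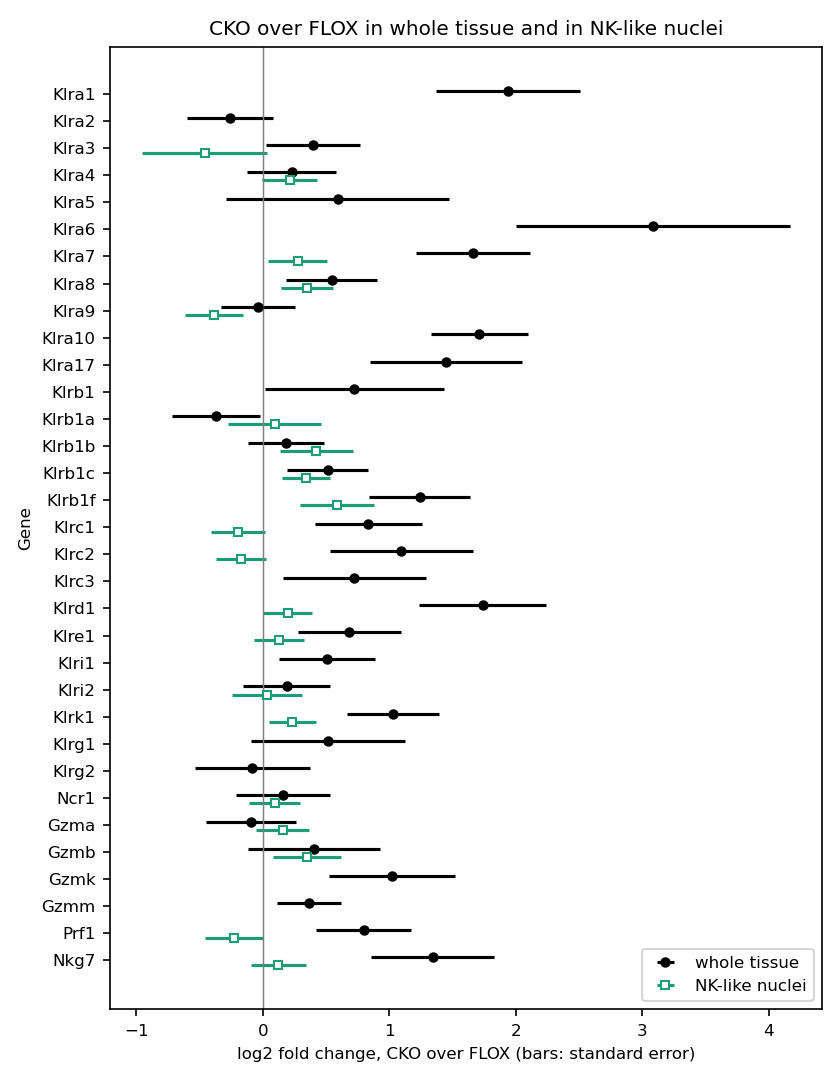
Log2 fold change, CKO over FLOX, of the 33 members tested in whole tissue (black circles) and of the 20 tested in NK-like nuclei (green open squares), with standard errors. Whole-tissue values run up to 3.08 (Klra6), while NK-like values lie between -0.46 (Klra3) and 0.59 (Klrb1f).

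T-like nuclei were of mixed make-up, and the mix differed between genotypes. Sub-clustering of NK- and T-like nuclei gave 13 sub-clusters. The 39 genes stood highest, outside NK-like nuclei and small mixed groups, in 2 of them. One, led by Nrg1 and Ifngas1, expressed Cd8a (229 CPM), Samd3 and Eomes and held the 39 genes at 3295 CPM over 361 nuclei. The other, led by Itga1 and Entpd1, expressed Cxcr3 and Tbx21 together with Cd3e (231 CPM) and held them at 2707 CPM over 253 nuclei; macrophage and neutrophil marker lists also reached the naming threshold in it. The Nrg1-led nuclei made up 14.7, 8.25 and 13.7% of T-like nuclei in CKO libraries, against 6.63, 3.03 and 6.43% in FLOX libraries. The Itga1-led nuclei made up 2.69, 14.4 and 4.42% in CKO libraries, against 33.7, 26.3 and 12.9% in FLOX libraries, and gamma-delta and IL-17 T-like nuclei 5.23, 7.22 and 5.72%, against 16.3, 13.1 and 19.3%.

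Nrg1-led nuclei had Ly49 receptors: 42.9% held a Klra UMI, and 20.2% held 2 or more Klra genes, while 0.831% held Gzma. Inhibitory Ly49 genes were found in 39.6% and activating ones in 1.11% of these nuclei. In Itga1-led nuclei 12.3% held a Klra UMI and 4.35% held Gzma (0 to 8.33% by library). Treg-like nuclei, the cells named in the knockout, had a Klra UMI in 0.219% and any of the 39 genes in 11.8% of 457 nuclei, against 6.46% of adipocyte-like nuclei. Summed over the 39 genes, Treg-like nuclei held 101, 59.5 and 184 CPM in CKO libraries, against 367, 164 and 52.7 CPM in FLOX libraries with 17 to 21 nuclei each.

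In T-like nuclei as a whole, 9 members passed the filter and edgeR called 1, Klrk1, which was lower in CKO, where 293 of 6912 genes were called (4.24%). Klrk1 stood at 155, 120.4 and 141 CPM in CKO libraries, against 259, 293 and 166 CPM in FLOX libraries, with no overlap (log2 fold change -0.70 ± 0.19, edgeR adjusted p = 0.0326). DESeq2 gave an adjusted p of 0.059, and leaving out CKO library 1, 2 or 3 or FLOX library 1 or 2 took it above the threshold (0.051, 0.088, 0.086, 0.25 and 0.13). Within sub-clusters, Klrk1 was at 678, 341 and 427 CPM in Nrg1-led nuclei of CKO libraries, against 507, 1046 and 937 CPM in FLOX libraries, whose values rest on 14, 3 and 11 nuclei. In Itga1-led nuclei it was at 261, 446 and 597 CPM in CKO libraries, against 707, 693 and 339 CPM in FLOX libraries. In gamma-delta and IL-17 T-like nuclei it was at 256, 224 and 323 CPM in CKO libraries, against 160, 331 and 223 CPM in FLOX libraries. The genotypes overlap in each of these sub-clusters.

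**Figure D5:**
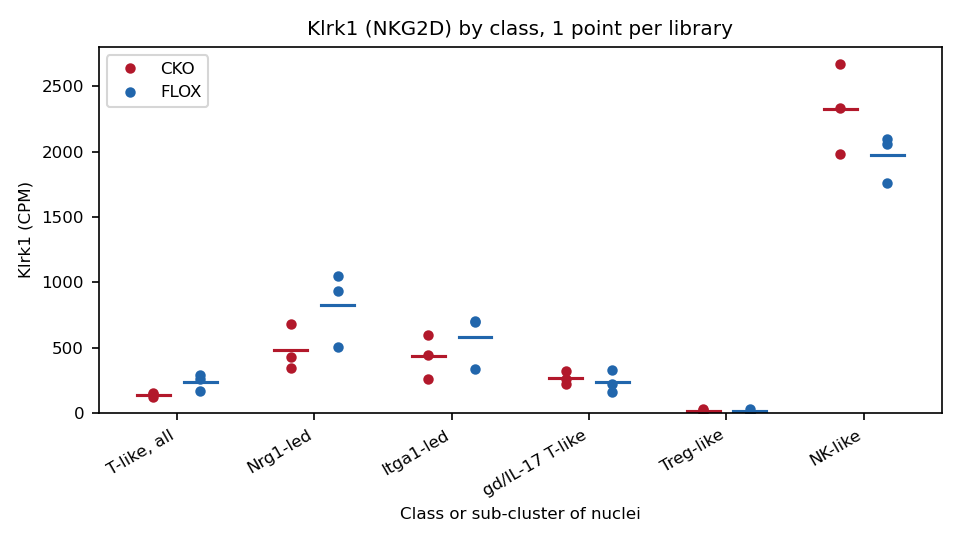
Klrk1 level in CPM in all T-like nuclei, in 4 lymphoid sub-clusters and in NK-like nuclei, with 1 point per library and a bar at the mean of 3 libraries (CKO red and left, FLOX blue and right). Over all T-like nuclei the CKO points (120.4 to 155 CPM) lie below the FLOX points (166 to 293 CPM), while in the sub-clusters and in NK-like nuclei the genotypes overlap.

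The other 8 members tested in T-like nuclei did not pass in this fit. Klra7, Klrd1 and Nkg7 passed in at least 1 alternative (lowest edgeR adjusted p 0.0035, 0.010 and 0.036). Klra7 had the largest rise in value, at 90.7, 70.2 and 49.6 CPM in CKO libraries, against 47.9, 20.5 and 26.7 CPM in FLOX libraries (log2 fold change 1.09 ± 0.35, edgeR adjusted p = 0.089). Klrb1c was at 27.0, 10.0 and 18.6 CPM in CKO libraries, against 38.3, 61.4 and 29.7 CPM in FLOX libraries (-0.90 ± 0.39, adjusted p = 0.22). Klrd1 had 0.56 ± 0.22, Prf1 0.57 ± 0.38, Klrc1 -0.50 ± 0.56, Nkg7 -0.26 ± 0.57, Klrc2 0.01 ± 0.46 and Klre1 -0.02 ± 0.37, and the sign of both Klrc2 and Klre1 changed between processing alternatives. Of the 23 marker lists, 9 had summed levels in this class that do not overlap between genotypes. The 12 T-cell markers, none at 0, summed to 9088 to 10283 CPM in CKO libraries, against 7300 to 8950 CPM in FLOX libraries, and the 2 CD8 T-cell markers to 272 to 345 CPM, against 92.1 to 182 CPM. The 9 gamma-delta and IL-17 markers, 1 at 0, summed to 409 to 690 CPM in CKO libraries, against 1214 to 1626 CPM in FLOX libraries. The 7 ILC2 markers, none at 0, summed to 262 to 398 CPM in CKO libraries, against 655 to 990 CPM in FLOX libraries. The 10 monocyte markers and 10 dendritic-cell markers, none at 0, were apart too, at 760 to 868 CPM in CKO libraries, against 895 to 1179 CPM in FLOX libraries, and at 126 to 149 CPM, against 80.2 to 109 CPM. The other 3 apart were the plasma cell, mast cell and basophil, and mural lists, all lower in CKO libraries. The 12 NK markers, none at 0, overlapped, at 1020 to 1071 CPM in CKO libraries, against 773 to 1425 CPM in FLOX libraries. Their part in the result for Klrk1 was not tested.

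The difference between the genotype effects in NK-like and T-like nuclei was tested in 1 model over both classes with a term for each library. Of 24 members, edgeR called 1, again Klrk1, with a difference of 0.96 ± 0.23 on the log2 scale (adjusted p = 0.0098), where 28 of 4137 genes were called (0.677%). DESeq2 called 0 members (Klrk1 adjusted p = 0.36; 5 members at an unadjusted p under 0.05, as were 3.43% of genes), and so did edgeR without CKO library 2 or FLOX library 1 or 2. Klrb1c had a difference of 1.34 ± 0.37 (edgeR adjusted p = 0.060) and Gzmb 2.31 ± 0.73 (adjusted p = 0.14).

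In macrophage-like nuclei (8009), only Klra2 and Klrk1 passed the filter, and edgeR called 0, where 0.0579% of genes were called; at an unadjusted p under 0.05 there were 2 members and 13.4% of genes, and DESeq2 called 1 member and 3.01% of genes. Klrk1 was at 11.3, 4.92 and 11.7 CPM in CKO libraries, against 1.27, 1.21 and 3.76 CPM in FLOX libraries (log2 fold change 2.27 ± 0.51, edgeR adjusted p = 0.0999, DESeq2 adjusted p = 0.0042). The groups do not overlap, and adipocyte-like nuclei held 0.127 to 1.90 CPM. Without CKO library 2, edgeR called it and 4.76% of genes. The 12 T-cell markers, none at 0, summed in these nuclei to 50.2, 24.9 and 91.1 CPM in CKO libraries, against 14.8, 12.6 and 22.9 CPM in FLOX libraries, and the 12 NK markers, none at 0, to 23.6 to 35.7 CPM, against 26.8 to 32.1 CPM. Their part in the Klrk1 values was not tested. At the finer clustering resolution of 2, and also with members kept in clustering, Klrk1 did not pass the filter in this class. In monocyte-like nuclei, Klra2 had a log2 fold change of -0.03 ± 0.19 (edgeR adjusted p = 0.998; 0.064% of genes called, members at an unadjusted p under 0.05: 0). In dendritic-like nuclei, Klri1 had 0.39 ± 0.31 and Klrk1 0.27 ± 0.31, with edgeR calling 0 members, 0 at an unadjusted p under 0.05, and 0% of genes. DESeq2 was not run for these 2 classes.

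Genes that work with the members were followed in 7 lists. In NK-like nuclei edgeR called none of the 31 list genes tested (5 at an unadjusted p under 0.05, where 6.19% of all genes were, and DESeq2 called 0). In whole tissue it called none of 69 (41 at an unadjusted p under 0.05, where 28.4% of all genes were). The replicate block gave 29 calls, where 5.92% of all genes were called, and DESeq2 38, where 17.3% were. In T-like nuclei 10 of 45 passed, where 4.24% of all genes did. DESeq2 called 6 of 45, where it called 195 of 6912 genes. Without FLOX library 1 edgeR called 1 of 49, where it called 111 of 8131 genes. By list, 4 of 7 NK cytokine receptor genes changed, 2 in each direction (list median log2 fold change -0.49, where the median of all genes tested was 0.01). Of the transcription factors 3 of 10 fell (median -0.60), and of the granule maturation and release genes 1 of 10 (median -0.07). Among ligands of the receptors, 2 of 7 rose (median 0.62). None of the 8 adaptor and signalling genes (median 0.17), the 2 cytokines and death ligands (median -0.28) or the 1 granzyme inhibitor (-0.35) passed. Lower in CKO were the transcription factors Zeb2 (log2 fold change -1.48 ± 0.32, edgeR adjusted p = 0.039), Id2 (-1.42 ± 0.29, 0.020) and Gata3 (-1.10 ± 0.23, 0.0059), and the IL-18 receptor chain Il18r1 (-0.75 ± 0.12, 0.00056). Higher were the ligands Clec2i (0.97 ± 0.23, 0.014) and Raet1e (0.84 ± 0.22, 0.034) and the cytokine receptors Il21r (0.80 ± 0.18, 0.013) and Il2rg (0.76 ± 0.20, 0.030). The NK-like minus T-like difference was called for Il18r1 (1.04 ± 0.22, edgeR adjusted p = 0.0034) and Id2 (1.34 ± 0.31, 0.0093). The make-up of T-like nuclei given above differs between the groups for these genes too. Of the NK markers used for naming, 8 are also in these lists.

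By pattern over classes and libraries, the genes outside the family most like the summed members were Cd244a, which encodes the NK receptor 2B4 (Pearson r 0.81), Spn (0.80), Rinl (0.79), Selplg (0.79), Zfp800 (0.78), Cd52 (0.78), Il18rap (0.78) and Ccr2 (0.78), over 101 class-by-library values of 22 classes. The points share libraries and depth, so this is a description.

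Sequence likeness limits some Ly49, NKG2 and granzyme values. Of the 31-base words in its transcripts, Klra10 shared 62.0% with other members, Klra9 57.6%, Klrc3 53.4%, Klrc1 53.1% and Klra3 43.5%, so that their counts are uncertain, while Ncr1, Gzma, Klrk1, Klrd1, Prf1 and Nkg7 shared 0%. Gzmk overlaps Esm1 on the other strand, and Klrb1b and Klrb1c overlap Gm44511 on the same strand.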

How the data were processed

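The authors deposited 1 matrix of UMI counts per library (genes by barcodes), made with Cell Ranger 7.1 per the submitters' processing notes. Builds mm10 and GRCh38 are named there, and every gene is a mouse gene. Intron counting and strand use are not stated.

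Kept were nuclei with 500 or more genes and no more than 5% mitochondrial UMIs, without the 5045 barcodes of highest Scrublet score (0.8% per 1000 barcodes of a library), which left 56451 of 65162. They were clustered in scanpy 1.11.5 (3000 variable genes without the 39 members, 40 principal components, 20 neighbours, Leiden resolution 1, 34 clusters). A cluster was named "-like" when at least 3 markers and 50% of 1 of 23 marker lists were 2-fold over the other clusters' mean (5 CPM added), and 1 such marker was among its 50 leading genes. Clusters that reached unrelated lists were called mixed. Remaining doublets can place these genes in other classes.

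Counts were summed per library and class and fitted with edgeR 4.0.16 in R 4.3.3 (TMM, filterByExpr, robust quasi-likelihood), where each library had at least 20 nuclei, with DESeq2 1.42.0 as an alternative. The edgeR steps were tested on simulated data. Libraries of 1 group differed by far more than sampling noise (chi-square over degrees of freedom 29.9 to 72.1), so each counted as 1 sample. In whole tissue, deviations of same-numbered libraries had r = 0.41, 0.15 and 0.11, but CKO library 3 went better with another FLOX library. The replicate block is given there as an alternative, paired fit. The labels do not say what a number marks.

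Members with at least 50 UMIs are described by class. List genes that passed are named, at most 8 per comparison by size of change, and so are the 8 genes of most similar pattern among those with at least 200 UMIs. The members and lists were chosen with earlier results of these data known. Alternatives were library totals, DESeq2, no filter, the replicate block, leaving out each library, at least 1000 genes per nucleus, other clusterings, thinning to 1000 UMIs and keeping doublets.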

Additional observations from a re-analysis of the deposited data

Results flagged for a closer look

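The effect of the genotype on Klrk1, the NKG2D receptor gene, differed between NK-like and T-like nuclei. The log2 fold change, CKO over FLOX, was 0.96 ± 0.23 higher in NK-like than in T-like nuclei (edgeR interaction term over 12 class-by-library sums, adjusted p = 0.0098). It was 0.23 ± 0.18 in NK-like and -0.70 ± 0.19 in T-like nuclei, with all 3 CKO libraries below all 3 FLOX libraries in the T-like class. Under its alternatives the difference stayed positive, and its adjusted p ran from 0.0020 to 0.36. The sub-clusters that make up the T-like class differed in share between genotypes, and their part in this difference was not tested.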

How the results depend on the processing

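Calls of members changed with the setting, and the calls over all genes are given in the next paragraph. In T-like nuclei 1 became 0 with DESeq2, with at least 1000 genes per nucleus and with members kept in clustering. It became 5 with no filter on low counts, 2 of them higher in CKO and 3 lower. Without CKO library 3 the 1 call was a member higher in CKO, unlike Klrk1. Without FLOX library 3 there were 3 calls, all lower in CKO. In macrophage-like nuclei 0 became 1 with DESeq2 and with no filter. In whole tissue 0 became 8 with DESeq2 and 5 with the replicate block. The NK-like minus T-like difference went to 0 calls with DESeq2, no filter, at least 1000 genes or members kept, and 2 with sub-clusters. With 1 library left out there were 0 to 6 calls in whole tissue, 0 to 3 in T-like, 0 to 1 in macrophage-like and 0 in NK-like nuclei, and 0 to 2 for the difference. The replicate block changed no call in T-like (1), NK-like or macrophage-like nuclei (0 each). Same-numbered libraries did not deviate together in T-like nuclei (r = -0.11, -0.036 and -0.020) and barely in NK-like nuclei (0.044, 0.0091 and 0.022). With a replicate block within each class, an alternative chosen after seeing the data, the difference had 2 calls, Klrk1 and Klrb1c. The causes were not tested.

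Over all genes, 9 of 19321 were called in whole tissue (1 higher). This became 3336 of 19307 with DESeq2, 1143 of 19321 with the replicate block and 294 of 27538 with no filter. It was 15 of 19125 with at least 1000 genes, 3 of 19007 outside NK-, T- and B-like nuclei and 1 of 19321 with library totals (0 higher). With 1 library left out it ran from 0 to 3427 of 19857, highest without CKO library 2. The 293 of 6912 in T-like nuclei became 195 of 6912 with DESeq2 and 624 of 19306 with no filter. With 1 left out they ran from 111 of 8131 to 306 of 6244. Over all alternatives the 2 of 1647 in NK-like nuclei ran from 0 to 9, the highest among 14156 genes with no filter. The 7 of 12096 in macrophage-like nuclei ran from 0 to 638, the highest among 21932 genes with no filter. The 28 of 4137 for the difference ran from 7 to 33.

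The log2 ratio of NK-like nuclei turned to 0.089 with TMM factors and ran from -0.51 to 0.22 with 1 library left out. Signs of uncalled genes turned as follows. In whole tissue Gzma had 0.0029 with the replicate block, and -0.41 to 0.17 with 1 left out. Outside NK-, T- and B-like nuclei Klrb1c had -0.45 and Ncr1 -0.49, and Ncr1 ran from -0.089 to 0.60 with 1 left out. In NK-like nuclei Gzma had -0.19 with members kept and -0.091 to 0.40 with 1 left out, and Ncr1 ran from -0.070 to 0.25. In T-like nuclei Klrc2 had -0.010 with library totals, -0.10 with DESeq2, -0.089 with the replicate block, -0.022 at resolution 2, -0.17 with sub-clusters and -0.66 to 0.22 with 1 left out. Klre1 had 0.12 with no filter, 0.28 with members kept and -0.41 to 0.20 with 1 left out, and Nkg7 ran from -0.81 to 0.70. Depth is low in dendritic-like (26 to 54 nuclei per library), NK-like (32 to 82), monocyte-like (44 to 175) and FLOX T-like nuclei (99 to 196), where differences within the errors given were not detectable.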
